A study of Mus musculus with 19 samples.

Results

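The receptors for the cytokines IL-18 and IL-12, and the transcription factor Stat4 that carries the IL-12 signal, were followed in CD8 T cells that had been transferred into mice. The genes are Il18r1, Il18rap, Il12rb1, Il12rb2 and Stat4, and they were chosen by symbol, through every probe set that the annotation assigns to 1 of them and to no other gene. That gave 6 probe sets for 5 of the 8251 genes with a symbol of their own: 101144_at for Il18r1, 95333_at for Il18rap, 102994_at for Stat4, 98240_at and 162408_f_at for Il12rb1, and 99323_at for Il12rb2. Of the 6, 5 passed the filter on low signal (a mean above 26.4) and were tested, and the probe set of Il12rb2 did not.

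The cells were OT-I T cells, which all carry the same transgenic receptor for an ovalbumin peptide, and were sorted from lymph node and spleen. Total RNA was measured on 19 oligonucleotide arrays of mouse samples. In 4 samples the cells had been placed in unirradiated B6 hosts and recovered at day 6. In the other samples the B6 hosts had been irradiated, which removes most lymphocytes and lets transferred cells divide without added antigen: 8 samples carry the title day 5, while 4 come from day 40 and 3 from day 115. Samples titled day 5 carry a description that puts the sort at day 6, and in arrays 1 and 2 of that group the description leaves the cell type unnamed. No unirradiated sample was taken at day 40 or day 115, so the irradiated host and the time since transfer cannot be told apart at those days. The radiation dose, the number of cells transferred and the age of the animals were not given in the sources used here. Nor do the labels state that samples came from separate animals, and p-values therefore measure the spread between these samples.

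IL-18 binds the chain encoded by Il18r1, and the accessory chain encoded by Il18rap completes the receptor, which signals through Myd88, Irak kinases and Traf6 to NF-kB and to MAP kinases. IL-12 binds a pair of chains encoded by Il12rb1 and Il12rb2, and the kinases Jak2 and Tyk2 then activate Stat4. Memory CD8 T cells are known to answer the 2 cytokines together with interferon gamma, in the absence of antigen. Naive CD8 T cells do so poorly.

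Il18r1 and Il18rap are neighbours on mouse chromosome 1, in the gene order Il1rl2, Il1rl1, Il18r1, Il18rap and Slc9a4. Stat4 lies elsewhere on the same chromosome. Since transcripts of these 3 genes were higher at the late days, the bases just before their outermost annotated starts are shown, from RefSeq (GRCm38.p6), 5′ to 3′ on the plus strand, in lower case with motif matches in capitals. Start windows were found for 4 of the 5 genes. The stretch of Il18r1 at chr1:40465419-40465551 begins right after the annotated end of Il1rl1, that of Il18rap lies at chr1:40515112-40515361, and that of Stat4 at chr1:51986898-51987105.
Il18r1: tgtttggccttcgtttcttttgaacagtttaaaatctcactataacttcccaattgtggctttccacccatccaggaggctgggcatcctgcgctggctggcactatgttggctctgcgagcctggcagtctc
Il18rap: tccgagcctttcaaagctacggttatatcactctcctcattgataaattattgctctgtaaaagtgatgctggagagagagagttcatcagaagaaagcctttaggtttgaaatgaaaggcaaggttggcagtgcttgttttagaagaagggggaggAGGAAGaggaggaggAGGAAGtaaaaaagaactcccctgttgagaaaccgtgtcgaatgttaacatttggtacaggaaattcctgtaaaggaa
Stat4: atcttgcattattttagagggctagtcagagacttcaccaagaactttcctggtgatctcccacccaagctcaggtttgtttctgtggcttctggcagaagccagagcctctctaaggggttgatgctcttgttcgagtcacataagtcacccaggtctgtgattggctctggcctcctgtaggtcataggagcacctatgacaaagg

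Each stretch was searched on both strands for short motifs of factor families that act in T cells: T-box (GGTGTG), Runx (TGTGGT), Stat (TTCNNNGAA), Ets (AGGAAG) and AP-1 (TGANTCA). The Il18rap stretch held 2 Ets letters, which begin 93 and 78 bases before the start and do not overlap. Of 32851 start windows of the same length, 29.5% held AGGAAG at least once. The other 4 motifs were not found in the Il18rap stretch, and none of the 5 was found in those of Il18r1 and Stat4. A match describes letters only, and the data hold no measure of binding.

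The deposited values are signal intensities, linear and in array units, and array medians ran from 49.6 to 53.7. Differences between groups are given on the log2(signal + 16) scale with their standard error, from limma over all 19 arrays, and adjusted p is by the method of Benjamini and Hochberg over the 8695 tested probe sets of a comparison. A change was called at an adjusted p under 0.05. The arrays fell into 2 clusters by their correlations, which cut across the groups. Cluster 1 comprised the first 3 arrays of day 5, the first 2 of day 40 and the 3 of day 115, and cluster 2 the rest, with the 4 unirradiated samples among them. Day 115 and the unirradiated hosts therefore had no cluster in common, and values from a fit with the cluster as a term, or from arrays of a single cluster, stand beside the results. The sources used here do not say what sets the clusters apart.

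Cd8a, the co-receptor of CD8 T cells, was measured at 1851 to 3906 in the 19 arrays, and Cd3e, which belongs to the T cell receptor complex, at 180 to 291. Ncr1, a receptor that defines natural killer cells, which also carry IL-18 and IL-12 receptors, lay between 10.9 and 21.5 and under the filter in all 19 arrays. Of 10 measured markers on the natural killer cell list, 6 passed the filter, among them Klrd1, Klrk1 and Fcgr3. Cd4, on the CD4 T-cell list, was measured at 128 to 195, and Cd79a, on the B-cell list, at 114.5 to 187. Of the CD4 T-cell list, 2 of 5 genes were tested and neither was called against unirradiated hosts. The share of other cells in the samples was not tested. In bulk samples, fewer cells that express a gene and less of its RNA per cell cannot be told apart.

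Il18r1, the chain that binds IL-18, was high at day 40 and day 115. In unirradiated hosts its signal was 158, 146, 88.9 and 166 in arrays 1 to 4. At day 5 the lowest of 8 arrays stood at 106, the median at 183 and the highest at 193. At day 40 the signal was 296, 418, 487 and 484, and at day 115 it was 403, 309 and 360. Every day-40 and day-115 array lay above all 12 arrays of the earlier groups, whose own values overlapped. The group means were 140 ± 34.8 (SD, n = 4) in unirradiated hosts, 167 ± 31.4 in the 8 arrays of day 5, 421 ± 89.2 in the 4 of day 40 and 357 ± 47.2 in the 3 of day 115.

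Il18rap, the accessory chain, had its highest signal at day 115. Its signal was 60.6, 64.8, 64.3 and 65.5 in the 4 unirradiated arrays. At day 5 it ran from 56.6 through a median of 81.2 to 131. It was 144, 188, 122 and 143 at day 40 and 209, 230 and 184 at day 115. The unirradiated arrays lay within a narrow band, day-5 array 3 reached into the range of day 40, and day-40 array 2 reached into that of day 115. The means were 63.8 ± 2.18, 85.0 ± 22.0, 149 ± 27.7 and 208 ± 23.2 in the order of the groups above.

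Stat4, the transcription factor downstream of the IL-12 receptor, was spread most widely at day 5. The unirradiated arrays gave 174, 181, 192 and 234. The day-5 arrays gave 336, 393, 380 and 358 in arrays 1 to 4, and 166, 215, 190 and 160 in arrays 5 to 8. The signal was 470, 666, 524 and 603 at day 40 and 422, 509 and 474 at day 115. Day-5 arrays 5 to 8 were thus at the level of the unirradiated arrays, and arrays 1 to 4 stood between that level and day 40, with no array in between. The first 3 of these higher arrays belonged to cluster 1 and array 4 to cluster 2. The means were 195 ± 26.6, 275 ± 101, 566 ± 86.3 and 468 ± 43.7 in the same group order.

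Il12rb1, the chain that the receptors for IL-12 and IL-23 share, was measured by 2 probe sets. By 98240_at the signal was 45.7, 44.9, 57.0 and 45.7 in unirradiated hosts, and 48.0, 58.5 and 80.2 as the lowest, median and highest value at day 5. It was 67.5, 70.6, 50.2 and 51.1 at day 40, and 78.6, 113 and 57.5 at day 115. The higher values of day 5 and day 40 lay in the cluster-1 arrays, and day-115 array 2 stood above all others. Within cluster 1 the group means were 74.5 ± 5.16 for 3 day-5 arrays, 69.0 ± 2.18 for 2 day-40 arrays and 83.1 ± 28.1 for the 3 day-115 arrays. Within cluster 2 they were 48.3 ± 5.79 for the 4 unirradiated arrays, 52.8 ± 6.27 for 5 day-5 arrays and 50.6 ± 0.65 for 2 day-40 arrays. By 162408_f_at the group means were 32.9 ± 4.27, 34.5 ± 4.13, 30.7 ± 2.72 and 38.6 ± 11.6, close to the filter, with day-115 array 2 again the highest at 51.2.

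Il12rb2, the chain that T cells gain on activation and that makes them responsive to IL-12, was not measured above the filter in any of the 19 arrays. Its group means were 17.2 ± 2.33 in unirradiated hosts, 17.1 ± 2.18 at day 5, 16.7 ± 2.37 at day 40 and 16.8 ± 1.33 at day 115. With no filter on signal, the 6 comparisons gave differences from -0.02 to 0.01, and none was called. A signal of this size gives no more than a bound, and a change at low level was not detectable on these arrays.

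**Figure D1:**
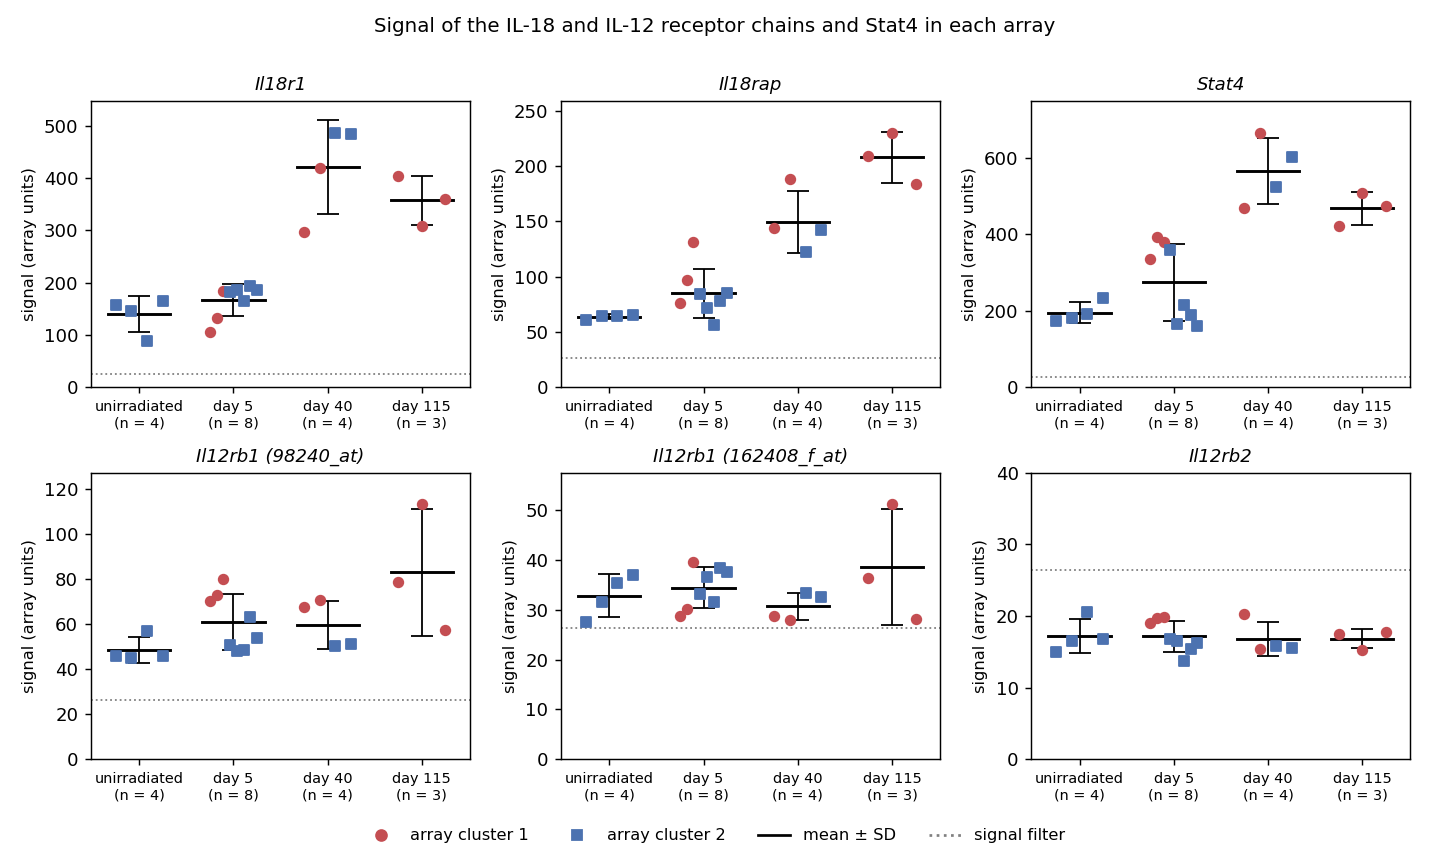
Signal of each of the 6 probe sets (vertical axis, linear array units) in each array, by group, with bars for the mean ± SD, red circles for array cluster 1 and blue squares for array cluster 2. All day-40 and day-115 arrays lie above all others for Il18r1, the day-5 arrays of Stat4 fall into a higher and a lower set, and all values of Il12rb2 lie under the dotted line of the filter at 26.4.

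Day 5 against unirradiated hosts asked whether the receptors had changed early after transfer into the irradiated host. None of the 5 tested probe sets was called by limma, where 0.414% of all tested probe sets were called higher and 0.794% in either direction. The differences were 0.24 ± 0.18 for Il18r1 (adjusted p = 0.534), 0.31 ± 0.14 for Il18rap (adjusted p = 0.343) and 0.39 ± 0.23 for Stat4 (adjusted p = 0.441). The 2 probe sets of Il12rb1 differed by 0.25 ± 0.14 (98240_at, adjusted p = 0.432) and 0.05 ± 0.09 (162408_f_at, adjusted p = 0.817). The groups overlapped for each of the 5, where 1.77% of all tested probe sets lay higher without overlap, and the median difference of the 5 was 0.25, beside 0.03 over all tested probe sets. The 95% intervals reached up to 0.62 for Il18r1, 0.61 for Il18rap and 0.86 for Stat4, so a rise up to that size could have gone uncalled. At an unadjusted p under 0.05, limma passed 1 of the 5, Il18rap, which held place 1008 among the 8695 probe sets ordered by p.

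Within cluster 2, where 5 day-5 arrays meet 4 unirradiated arrays, the day-5 differences were 0.38 for Il18r1 (adjusted p = 0.264 by limma), 0.18 for Il18rap (adjusted p = 0.416) and 0.10 for Stat4 (adjusted p = 0.9). None of these was called, nor was any of the 5 with the cluster as a term, where 1% of all tested probe sets were called higher.

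Day 40 against unirradiated hosts asked how cells differed once the early expansion was past. The 2 chains of the IL-18 receptor and Stat4 rose, and Il12rb1 was not called. Il18r1 rose by 1.50 ± 0.21, or 2.82-fold on the scale of signal + 16 (adjusted p = 0.000548 by limma). Il18rap rose by 1.04 ± 0.16, or 2.05-fold (adjusted p = 0.00185), and Stat4 by 1.46 ± 0.26, or 2.75-fold (adjusted p = 0.00597). In each of these 3 genes all 4 day-40 arrays lay above all 4 unirradiated arrays. The 3 of 5 tested probe sets that were called higher stand beside 1.16% of all tested probe sets, and the 3 that did not overlap beside 8.6%. The median of the 5 was 1.04, and that of all tested probe sets 0.03. Among the 8695 probe sets ordered by p, Il18r1 held place 14, Il18rap place 22 and Stat4 place 36.

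Il12rb1 differed by 0.23 ± 0.16 (98240_at, adjusted p = 0.502 by limma) and -0.06 ± 0.11 (162408_f_at, adjusted p = 0.794) at day 40, with intervals of -0.11 to 0.57 and -0.28 to 0.16. With the array cluster as a term the rise of Il18r1 was 1.70 ± 0.18 (adjusted p = 2.07e-05), that of Il18rap 0.87 ± 0.14 (adjusted p = 0.00149) and that of Stat4 1.20 ± 0.23 (adjusted p = 0.00642). In that fit 1.81% of all tested probe sets were called higher. Within cluster 2 alone, with 2 day-40 against 4 unirradiated arrays, 438 of the 8695 tested probe sets were called. The rises of Il18r1, Il18rap and Stat4 there were 1.72, 0.89 and 1.46, and each passed (adjusted p = 0.00335, 0.00183 and 0.00155 by limma). The 3 calls also held whichever of the 8 arrays was left out.

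Day 115 against unirradiated hosts asked which differences were present at the last time. Il18rap rose by 1.48 ± 0.18, or 2.79-fold (adjusted p = 4.37e-05 by limma), and Il18r1 by 1.29 ± 0.23, or 2.44-fold (adjusted p = 0.00134). Stat4 rose by 1.20 ± 0.28, or 2.30-fold (adjusted p = 0.00684), and 98240_at of Il12rb1 by 0.59 ± 0.18, or 1.50-fold (adjusted p = 0.02). The other probe set of Il12rb1 differed by 0.14 ± 0.11 (adjusted p = 0.357). The groups of these 4 called probe sets did not overlap. For 98240_at the separation was narrow, with the lowest day-115 array at 57.48 and the highest unirradiated array at 57. At this day 15.1% of all tested probe sets were called higher, 12.8% were called lower and 21.7% lay higher without overlap, and 4 of 5 calls are to be read against that background. The median of the 5 was 1.20, and that of all tested probe sets 0.01.

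The cluster term changed this comparison, in which no array cluster holds both groups. With the term, Il18r1 rose by 1.69 ± 0.23 (adjusted p = 0.000307 by limma) and Il18rap by 1.16 ± 0.18 (adjusted p = 0.00132). Stat4 stood at 0.69 ± 0.29 (adjusted p = 0.172) and Il12rb1 at 0.21 ± 0.17 by 98240_at (adjusted p = 0.475), and neither was called. In that fit 3.15% of all tested probe sets were called higher. The Il12rb1 call also ended without day-115 array 2, at 0.38 ± 0.17 (adjusted p = 0.12).

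The summed signals of myeloid and B-cell markers were higher at day 115 too, that of natural killer cell markers was lower, and their part in these rises was not tested. The summed signal of 12 measured myeloid and dendritic cell markers was 731 to 853 in unirradiated hosts, 678 to 1333 at day 5, 792 to 1323 at day 40 and 1039 to 1902 at day 115. Of the 9 that passed the filter and were tested, 3 rose at day 115, among them H2-Aa and Cd74 of antigen presentation. Itgax, also on the list, ran from 46.9 to 48.8 in unirradiated hosts and from 75.5 to 87.0 at day 115. The 3 untested markers were Itgam, Lyz2 and Adgre1. Itgam, a defining myeloid marker, and Lyz2 stayed under the filter in the mean of every group. Adgre1 stood at 23.6 ± 2.01 in unirradiated hosts and at 31.3 ± 6.89 at day 115, above the filter. The sum of 8 of 9 B-cell markers was 517 to 554, 516 to 758, 575 to 899 and 635 to 916 in the same order, and 1 of 6 tested rose. The sum of 10 of 14 natural killer cell markers was 1061 to 1706, 915 to 1688, 1043 to 1260 and 860 to 1026 and was carried mostly by Klrd1, which CD8 T cells also express. Of the 6 tested on that list, 2 rose at day 115 (Klra3 and Klrk1) and Klrd1 fell. These counts stand beside the 15.1% of all tested probe sets called higher and the 12.8% called lower, and that of the B-cell markers is near this background. Neither these rises over unirradiated hosts nor the fall of Klrd1 were called with the cluster term. In that fit the median difference at day 115 was -0.19 over the tested myeloid markers, 0.15 over those of B cells and -0.04 over those of natural killer cells. At day 5, 1 of 6 natural killer cell markers rose in both fits, beside 0.414% and 1% of all tested probe sets. For day 115 against day 5 with the term, 1 of 6 natural killer cell and 1 of 6 B-cell markers rose, beside 7.23% of all. There 1 of 9 myeloid markers fell. No listed marker of any of the 3 cell types was at 0. A probe set of the myeloid marker Csf1r other than its brightest was called higher at day 115 on groups alone (0.77, adjusted p = 0.00897 by limma).

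**Figure D2:**
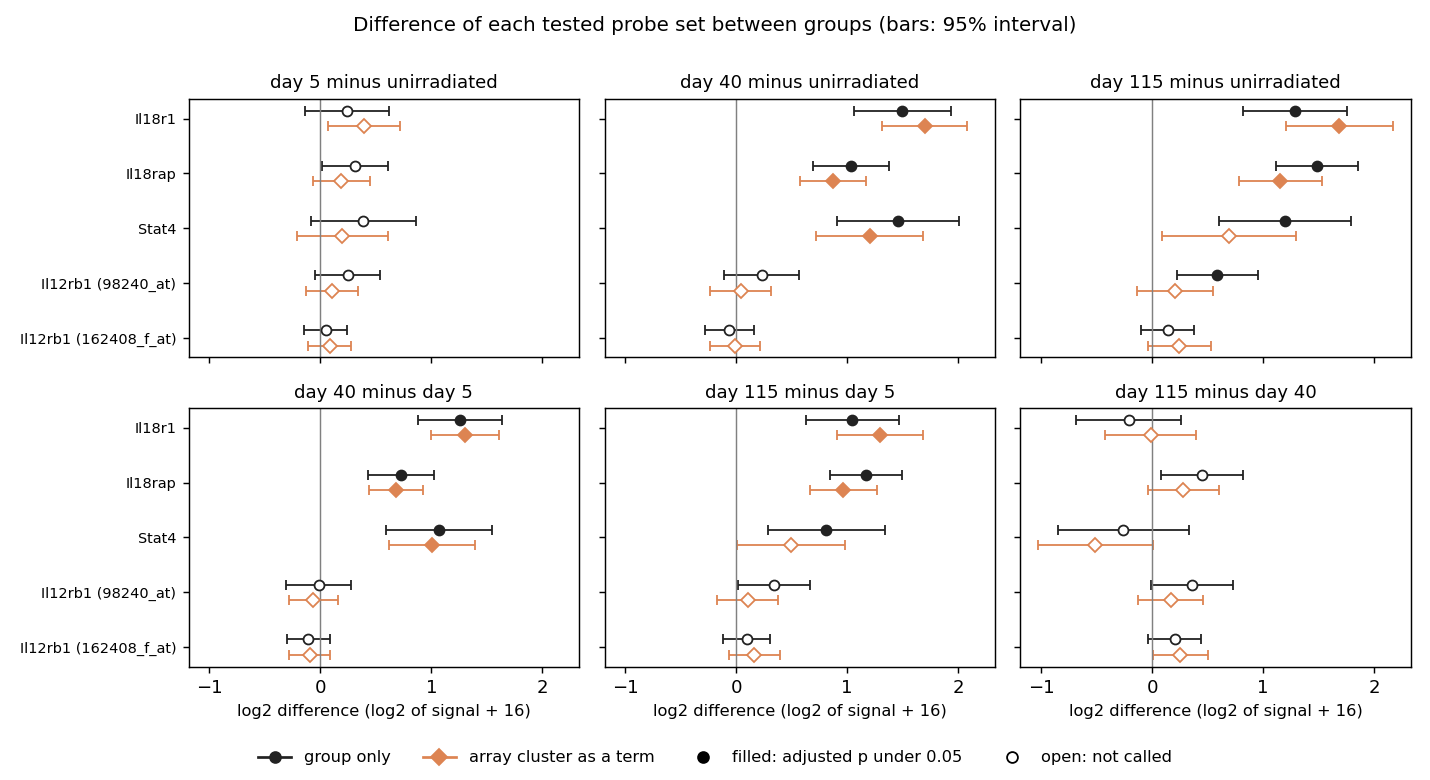
Difference between groups of each tested probe set (horizontal axis, log2 of signal + 16, first group minus second) with its 95% interval, from the fit on groups alone (black circles) and with the array cluster as a term (orange diamonds). Filled symbols have an adjusted p under 0.05: Il18r1 and Il18rap are filled in both fits against unirradiated hosts at day 40 and day 115, and Stat4 at day 115 is filled on groups alone.

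Day 40 against day 5 compared groups that each have arrays in both clusters. Il18r1 rose by 1.25 ± 0.18 (adjusted p = 0.00121 by limma), Stat4 by 1.07 ± 0.23 (adjusted p = 0.0224) and Il18rap by 0.72 ± 0.14 (adjusted p = 0.0132). The day-40 arrays lay above all day-5 arrays for Il18r1 and Stat4, while Il18rap overlapped through day-5 array 3. Higher calls made up 0.943% of all tested probe sets, and 1.43% lay higher without overlap. The 98240_at probe set of Il12rb1 differed by -0.02 ± 0.14 (adjusted p = 0.995) and 162408_f_at by -0.11 ± 0.09 (adjusted p = 0.774). In the fit with cluster as a term the rises were 1.30, 1.01 and 0.68 in the order Il18r1, Stat4 and Il18rap, and all 3 passed (adjusted p = 4.26e-05, 0.00306 and 0.00176), where 5.14% of all probe sets were called higher.

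The day-40 and day-5 arrays were also compared within each cluster. Il18r1 differed by 1.27 in cluster 1 (2 arrays against 3, adjusted p = 0.254 by limma) and by 1.34 in cluster 2 (2 against 5, adjusted p = 0.00194). Il18rap differed by 0.65 (adjusted p = 0.383) and 0.71 (adjusted p = 0.0348). Stat4 differed by 0.58 (adjusted p = 0.425) and 1.36 (adjusted p = 0.0372), and whether these 2 values differ was not tested. No probe set of the whole table was called in the cluster-1 comparison, and 319 of the 8695 tested were called in cluster 2. The call of Il18rap ended without day-40 array 2 (0.62, adjusted p = 0.0519) or array 4 (0.74, adjusted p = 0.0565), and that of Stat4 without array 2 (0.99, adjusted p = 0.0659), 3 (1.10, adjusted p = 0.0547) or 4 (1.04, adjusted p = 0.103).

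Day 115 against day 5 gave rises of 1.17 ± 0.16 for Il18rap (adjusted p = 0.000226 by limma), 1.04 ± 0.20 for Il18r1 (adjusted p = 0.00308) and 0.81 ± 0.25 for Stat4 (adjusted p = 0.039). None of the 3 overlapped between the groups. Higher calls made up 8.23% of all tested probe sets, and 5.78% lay higher without overlap. The Il12rb1 difference was 0.34 ± 0.16 by 98240_at (adjusted p = 0.139) and 0.10 ± 0.10 by 162408_f_at (adjusted p = 0.54). Without day-115 array 3 the former was 0.54 ± 0.16 and was called (adjusted p = 0.0441). With the cluster term Il18r1 (1.29, adjusted p = 0.00037) and Il18rap (0.97, adjusted p = 0.000454) kept their calls and Stat4 lost its own (0.50, adjusted p = 0.154), with 7.23% of all probe sets called higher.

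Within cluster 1, with 3 arrays in each group, the differences between day 115 and day 5 were 1.28 for Il18r1 (adjusted p = 0.0294 by limma), 0.95 for Il18rap (adjusted p = 0.0516) and 0.33 for Stat4 (adjusted p = 0.335). Of the 8695 tested probe sets, 113 were called there. The Stat4 call on groups alone ended without day-5 array 5, 6, 7 or 8 (adjusted p from 0.0601 to 0.0659) and without any 1 of the 3 day-115 arrays (0.0703 to 0.134). The 3 comparisons with unirradiated hosts share those 4 arrays, and the 2 with day 5 share those 8, so the comparisons are not independent of each other.

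Day 115 against day 40 asked whether the levels had moved on between the late days. None of the 5 tested probe sets was called by limma, beside 0.092% of all probe sets called higher. At an unadjusted p under 0.05, 1 of the 5 passed, Il18rap, at place 566 of the 8695 ordered by p. The differences were -0.21 ± 0.23 for Il18r1 (adjusted p = 0.66 by limma), 0.45 ± 0.18 for Il18rap (adjusted p = 0.314) and -0.26 ± 0.28 for Stat4 (adjusted p = 0.669). The groups overlapped for each, where 4.06% of all tested probe sets lay higher without overlap. The intervals ran from -0.68 to 0.26, 0.08 to 0.82 and -0.85 to 0.34. Il12rb1 differed by 0.36 ± 0.18 (98240_at, adjusted p = 0.38) and 0.20 ± 0.11 (162408_f_at, adjusted p = 0.419). Within cluster 1, where 3 arrays meet 2, the differences were 0.01 for Il18r1, 0.30 for Il18rap and -0.25 for Stat4, each with an adjusted p of 0.998. With the cluster as a term none of the 5 was called either, beside 0.127% called higher of all tested.

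By group means, Il18r1 and Stat4 thus ran from unirradiated hosts through day 5 and day 115 to day 40, and Il18rap from unirradiated hosts through day 5 and day 40 to day 115. In each of these 3 orders the lower pair of neighbours and the upper pair did not differ past the threshold, and the step in the middle did, from day 5 to day 115 for Il18r1 and Stat4 and from day 5 to day 40 for Il18rap. These orders hold for the fit on groups alone. The step of Stat4 lost its call in 13 of 25 alternatives, the cluster term among them, and that of Il18rap in 6 of 28, among them the 2 groups alone (adjusted p = 0.0692 by limma) and the replicate number as a block (0.142). With that block the lower pair was called for Il18rap (adjusted p = 0.04) and Stat4 (adjusted p = 0.00368). In that fit 1707 of the 8695 tested probe sets were called for day 5 against unirradiated hosts, beside 69 on groups alone.

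The receptor chains had their highest means on different days, and whether their difference shifted was tested within arrays. For the 4 unirradiated arrays the log2 signal of Il18rap minus that of Il18r1 averaged -0.93 ± 0.37 (SD). The average was -0.86 ± 0.39 for the 8 arrays of day 5, -1.39 ± 0.43 for the 4 of day 40 and -0.74 ± 0.29 for the 3 of day 115. The size of this difference depends on the 2 probe sets and only its shift between groups can be read. The largest shift, 0.66 from day 40 to day 115, had p = 0.0857 by an exact two-sided permutation test, where 0.0286 is the smallest p possible, and 0.257 after Benjamini-Hochberg adjustment over the 6 comparisons. The shift of -0.53 from day 5 to day 40 had p = 0.0505 (exact, adjusted 0.257), and the other 4 had adjusted p from 0.514 to 0.836. Within array cluster 1 the change from day 40 to day 115 was 0.01 for Il18r1 and 0.30 for Il18rap.

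**Figure D3:**
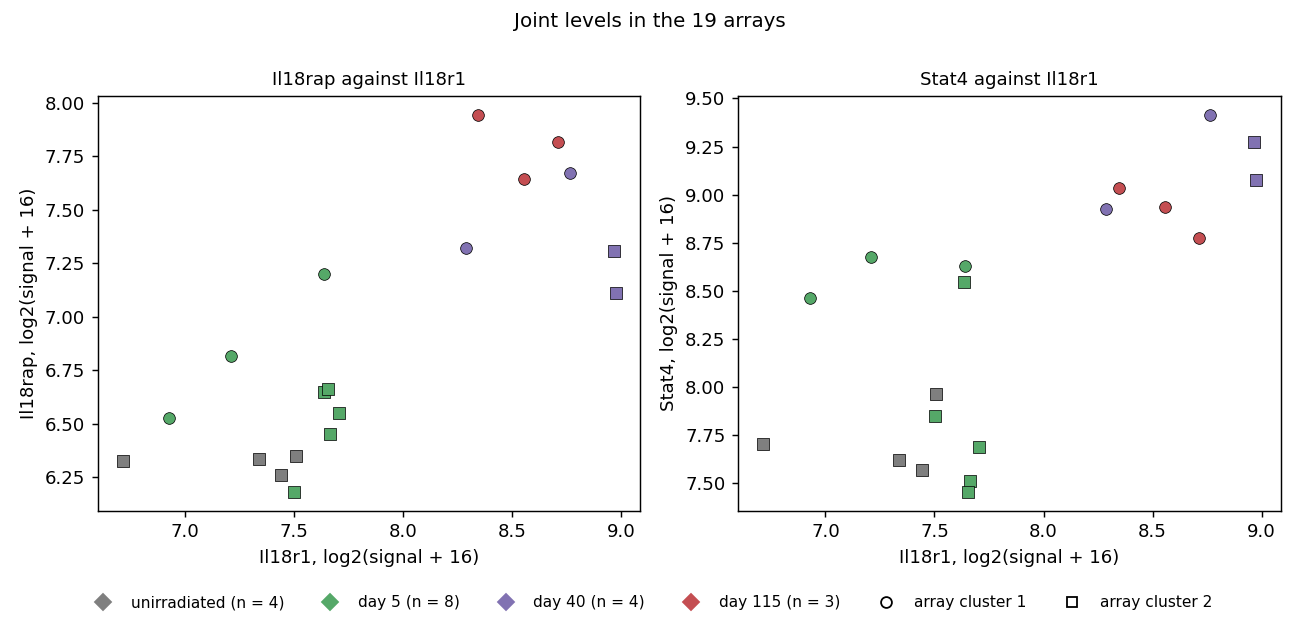
Level of Il18rap (left) and Stat4 (right) against that of Il18r1 in the 19 arrays, on log2(signal + 16) axes, coloured by group, with circles for array cluster 1 and squares for cluster 2. The day-40 and day-115 arrays lie to the upper right of all unirradiated arrays in each panel, and at day 5 the cluster-1 arrays lie higher in Il18rap or Stat4 for their level of Il18r1 than the cluster-2 arrays, apart from 1 cluster-2 array high in Stat4.

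As a description over the 19 arrays, which share group, cluster and normalisation, Il18r1 and Il18rap had a Pearson correlation of 0.79 on the log2 scale, Il18r1 and Stat4 of 0.72, and Il18rap and Stat4 of 0.83. With the mean of each array cluster taken out, these were 0.91, 0.76 and 0.70. Il18rap then held place 3 among 6408 genes compared with Il18r1, where it had held place 23. Il12rb1 (98240_at) had 0.19 with Il18r1, 0.69 with Il18rap and 0.52 with Stat4, which became 0.00, 0.30 and 0.01 with the cluster means out.

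The 3 genes most like Il18r1 over the 19 arrays were the chemokine gene Ccl5 (0.92), the chemokine receptor gene Ccr2 (0.90) and the ubiquitin protease gene Usp48 (0.89). Ccr2 stood at 31.4 ± 3.90 in unirradiated hosts, 47.0 ± 14.1 at day 5, 108 ± 31.9 at day 40 and 105 ± 23.9 at day 115, the same order as Il18r1. Usp48 stood at 177 ± 16.4, 179 ± 30.2, 362 ± 57.6 and 308 ± 44.7. Ccl5 and Ccr2 also came first with the cluster means taken out, at 0.92 and 0.91.

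For Il18rap the genes most alike were H2-Q10 (0.93), Aqp9 (0.93) and Kcnj8 (0.92), and with the cluster means out they were Dock5 (0.92), Il18r1 (0.91) and Ccr2 (0.90). The water channel gene Aqp9 stood at 35.0 ± 3.34, 57.7 ± 8.62, 110 ± 27.3 and 165 ± 50.8 in the order of the groups, and the potassium channel gene Kcnj8 at 24.5 ± 0.91, 27.1 ± 4.68, 42.1 ± 6.72 and 80.1 ± 8.43. These levels were highest at day 115, as were those of Il18rap. For Stat4 the genes were Dgka, a diacylglycerol kinase gene (0.95), Cand1 (0.94) and Pou6f1 (0.91), and Cand1 (0.94), Dgka (0.92) and Ipo11 (0.92) with the cluster means out. Dgka stood at 440 ± 40.2, 548 ± 210, 903 ± 68.0 and 950 ± 176. The genes nearest to Il12rb1 were Abcb9 (0.94), Lmf1 (0.93) and Bcl7b (0.93), all replaced with the cluster means out by Btd (0.86), Col9a2 (0.84) and Slc25a44 (0.83).

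Lists of genes around these receptors, each gene counted by its brightest probe set, show what moved beside them. Against unirradiated hosts, 0.414%, 1.16% and 15.1% of all tested probe sets were called higher at day 5, day 40 and day 115, and 12.8% were called lower at day 115. With the cluster term 1%, 1.81% and 3.15% were called higher and 0.61%, 0.426% and 1.27% lower. Counts at day 115 on groups alone are to be read against that background. For counts at an unadjusted p under 0.05 the share over all tested probe sets is not given here, so they are no result about a list. Among ligands and soluble inhibitors, 4 of 12 genes were tested and none was called by limma against unirradiated hosts at any day, nor did any have an unadjusted p under 0.05. The IL-18 gene Il18 had group means of 16.8 to 18.6, and the gene of the IL-12 subunit Il12a of 21.3 to 25.0, both under the filter. The highest Il12a arrays of day 5 (29.35) and day 40 (28.53) lay above the filter. The other subunit gene Il12b stood at 60.8 ± 7.51, 61.0 ± 8.88, 58.9 ± 6.49 and 56.8 ± 1.91, and Il18bp, a soluble protein that binds IL-18, at 61.3 ± 2.09, 64.3 ± 8.58, 65.0 ± 7.91 and 61.2 ± 1.20, in overlapping ranges. Ifng, the cytokine gene that the 2 pathways drive, had means of 11.9 to 17.0, also under the filter. The highest of these means was that of unirradiated hosts (17.0 ± 11.7), where the highest array stood at 34.5, above the filter.

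Of 7 tested genes of related cytokine receptors, none rose and 1 fell at day 5, none was called at day 40 (4 had an unadjusted p under 0.05 by limma), and 3 rose at day 115. Falls made up 0.38% of all tested probe sets at day 5. Il7r, the receptor chain for IL-7, fell at day 5 by 1.17 ± 0.25 (adjusted p = 0.0348 by limma). That call ended without any 1 of the 4 unirradiated arrays (adjusted p from 0.0618 to 0.188) and without day-5 array 1, 2, 3, 5 or 6 (0.0509 to 0.0634). The call was kept with the cluster term (-0.99, adjusted p = 0.0275), and in 15 of 26 alternatives in all. At day 115 the receptor genes Ifngr1 for interferon gamma (1.26 ± 0.31, adjusted p = 0.00786), Il2rb for IL-2 and IL-15 (0.52 ± 0.17, adjusted p = 0.0279) and Il15ra (0.51 ± 0.16, adjusted p = 0.028) rose, and none of the 3 was called with the cluster term. The median of the 7 was -0.39 at that day and 0.30 at day 40.

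In the IL-18 signalling list, 20 of 29 genes were tested, with 1 risen at day 5, 3 risen at day 40, and 5 risen and 6 fallen at day 115. Map3k8, a kinase of the MAP kinase branch, rose at all 3 days, by 0.69 ± 0.11, 0.82 ± 0.13 and 0.95 ± 0.14 (adjusted p = 0.00683, 0.0019 and 0.000445 by limma), and did so with the cluster term too. The IkB kinase subunit genes Ikbkb (0.63 ± 0.13, adjusted p = 0.0188) and Ikbkg (0.70 ± 0.16, adjusted p = 0.0268) rose at day 40. The call of Ikbkb ended without day-40 array 1 or unirradiated array 1, 2 or 3 (adjusted p from 0.0572 to 0.0755), and that of Ikbkg without day-40 array 1, 2 or 4 or unirradiated array 1, 3 or 4 (0.0586 to 0.115). The other probe set of Ikbkg differed by 0.02 (adjusted p = 0.942). Map3k8, Ikbkb and Ikbkg were named after their values had been seen. The largest differences at day 115 were in Nfkbia, the inhibitor of NF-kB (-2.43 ± 0.44, adjusted p = 0.00158), Traf6 (-2.09 ± 0.56, adjusted p = 0.0127), Irak1 (-1.33 ± 0.39, adjusted p = 0.0184), Rela (1.12 ± 0.28, adjusted p = 0.00881) and Relb (1.07 ± 0.18, adjusted p = 0.00121). With the term 2 rose (Map3k8 and Relb) and 1 fell at day 115, Nfkbia by -1.07 (adjusted p = 0.0066). Nfkbia was also called with the term at day 5 (-0.58, adjusted p = 0.0412) and day 40 (-0.84, adjusted p = 0.0077), the 1 gene of the list that fell at each of those days. The other probe set of Nfkbia differed by 0.55 (adjusted p = 0.344) and those of Traf6 by -0.17 and -0.07 (adjusted p = 0.637 and 0.541), none of them called. That of Relb was called higher at day 115 on groups alone (0.28, adjusted p = 0.0251 by limma).

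In the IL-12 signalling list, 16 of 20 genes were tested and none was called by limma at day 5 or day 40, where 5 and 3 had an unadjusted p under 0.05. At day 115 the phosphatase gene Ptpn6 (1.13 ± 0.34, adjusted p = 0.0199 by limma), the inhibitor gene Socs1 (0.94 ± 0.28, adjusted p = 0.0194) and Pias1 (0.46 ± 0.15, adjusted p = 0.0258) rose, and Pias3 fell by 0.64 ± 0.17 (adjusted p = 0.0111). All 4 calls were lost with the cluster term. In that fit Socs2, another inhibitor gene of the same family as Socs1, was called at day 5 (0.45, adjusted p = 0.0105) and day 115 (0.51, adjusted p = 0.0363), and was named after its values had been seen. Probe sets other than the brightest were called at day 115 on groups alone for 3 genes of the list. That of Socs3 was higher (0.82, adjusted p = 0.00177 by limma), as was that of Stat3 (0.43, adjusted p = 0.0488). That of Jak2 was lower (-0.74, adjusted p = 0.0308), and that of Stat5a was not called (0.36, adjusted p = 0.0849). Stat4 itself was counted among the receptors and not in this list.

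Of 29 genes listed as targets of these cytokines, 20 were tested, and 1 rose at day 5, 4 at day 40 and 4 at day 115, with 2 fallen at day 115, where the shares risen and fallen lay near those of all probe sets. Cxcr3, a chemokine receptor gene that guides cells to sites rich in interferon gamma, rose at all 3 days, by 1.66 ± 0.20, 2.56 ± 0.24 and 2.93 ± 0.25 (adjusted p = 0.000423, 4.66e-06 and 1.41e-06 by limma). Ccl5 rose by 2.84 ± 0.43 at day 40 and 2.83 ± 0.47 at day 115, and Fasl, the ligand of the death receptor Fas, by 1.51 ± 0.10 and 1.32 ± 0.11. Cxcr3, Ccl5 and Fasl were the 3 target genes called with the cluster term at day 115. The perforin gene Prf1, named after its values had been seen, rose by 0.79 ± 0.15 at day 40 (adjusted p = 0.00828). The falls at day 115, of Ets1 (-1.75 ± 0.43, adjusted p = 0.00842) and Furin (-0.96 ± 0.22, adjusted p = 0.0053), were not called with the term, and the other probe set of Ets1 differed by 0.58 (adjusted p = 0.0894). A probe set of Lta other than its brightest was called lower at day 115 on groups alone (-0.69, adjusted p = 0.00918 by limma).

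**Figure D4:**
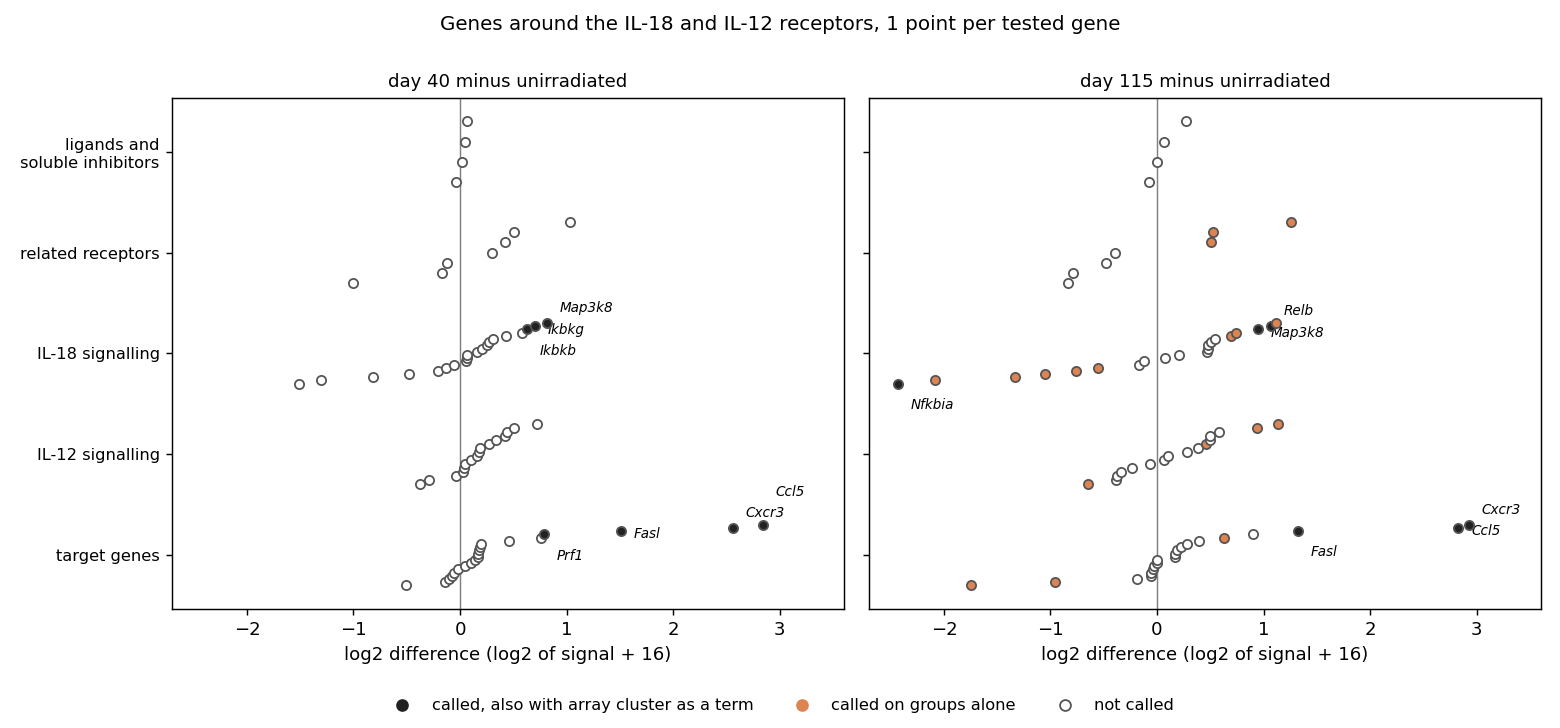
Difference from unirradiated hosts (horizontal axis, log2 of signal + 16) at day 40 (left) and day 115 (right) for each tested gene of 5 lists, 1 point per gene by its brightest probe set. Black points were called on groups alone and with the array cluster as a term, orange points on groups alone, and open points were not called on groups alone: at day 40 the named points of the IL-18 signalling list and of the target genes lie to the right, and at day 115 most called points of the signalling lists are orange.

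Of 17 listed neighbours of these genes on chromosome 1, 3 were tested. None was called by limma at day 5 or day 40 (0 and 1 had an unadjusted p under 0.05), and all 3 were called lower at day 115. Map4k4 differed by -1.14 ± 0.26 (adjusted p = 0.00614 by limma), Nab1 by -1.25 ± 0.44 (adjusted p = 0.0403) and Nabp1 by -1.55 ± 0.47 (adjusted p = 0.0215). None of the 3 was called with the cluster term, and the other probe set of Map4k4 differed by 0.48 (adjusted p = 0.0992).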

How the data were processed

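The deposited table gives 1 signal intensity per probe set and array. The steps by which the authors made it were not given in the sources used here. Near equal array medians (a range of 0.088 on the log2 scale) allowed use without further normalisation. Of 12488 probe sets, 66 controls were left out, and 10833 of the others had 1 gene symbol, 396 several and 1193 none in the platform annotation. In limma 3.58.1 (R 4.3.3), log2(signal + 16) was modelled with group as the only factor over 19 arrays and an intensity trend in the moderated variance, after a filter at the 30th percentile of mean signal, and p-values were adjusted by Benjamini-Hochberg over the tested probe sets. The script was tested on simulated data. The genes and lists were chosen with earlier results of these data known. Genes named from a list are at most the 5 with the largest called difference from unirradiated hosts, with stated exceptions. Array clusters came from average linkage on 1 minus Pearson's r. Alternatives were pseudocount, filter, normalisation, trend, cluster term, within-cluster fits, a replicate block, the 2 groups alone, and leaving out arrays. A permutation of the receptor-chain difference and within-cluster fits that use the spread of all arrays were added after the data had been seen.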

Additional observations from a re-analysis of the deposited data

Results flagged for a closer look

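Of 18 groups of 4 to 10 arrays checked among the 6 probe sets, 2 held an array far from the others, and chance flags about 1 in 20 groups. Unirradiated array 3 had a signal of 57.0 for Il12rb1 (98240_at), where the nearest other array stood at 45.7. Day-40 array 1 had 20.3 for Il12rb2, where the nearest stood at 15.8, with all 4 values under the filter.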

How the results depend on the processing

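The day-40 and day-115 rises of Il18r1 and Il18rap over unirradiated hosts, and the day-40 rise of Stat4, kept their direction and their side of the threshold in every alternative run, from 1.25 to 1.72 and 1.06 to 1.69 for Il18r1, 0.73 to 1.20 and 1.09 to 1.68 for Il18rap, and 1.20 to 1.54 for Stat4. For day 115 against unirradiated hosts no within-cluster fit was among the alternatives, because no array cluster holds both groups. Of the 5 tested probe sets, 4 were called at day 115 against unirradiated hosts, and 2 with the cluster term. Day 40 against day 5 gave 3 calls, and 1 with the replicate block, 1 with the 2 groups alone, 0 within cluster 1, 1 within cluster 1 with the spread of all arrays, and 1 to 3 with single arrays left out. Day 115 against day 5 gave 3, and 1 within cluster 1, and the Stat4 call among them was lost in 13 of 25 alternatives. Among the listed genes named at day 115, leaving out single arrays ended calls of Il2rb, Il15ra, Irak1, Rela, Ptpn6, Socs1, Pias1, Pias3, Nabp1 and Nab1 (adjusted p from 0.0515 to 0.127). The causes were not tested. Of 21 same-number pairs of arrays, 8 correlated above 0.1 (range -0.67 to 0.76). Between day 5 and day 40 the pairs in the same cluster had 0.64, 0.62 and 0.76, and the pair in different clusters -0.67. Pairs of different number were not set beside them, so whether replicate numbers pair the samples cannot be read from these values. With the replicate block, which gives day-5 arrays 5 to 8 no weight, day 5 against unirradiated hosts gave 2 calls in place of 0, Il18rap at 0.48 (adjusted p = 0.04 by limma) and Stat4 at 0.86 (adjusted p = 0.00368). Those 2 calls are to be read against 1707 of all 8695 tested probe sets called in that fit, beside 69 on groups alone.

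Signs that turned were all of differences not called, other than those of the neighbours Nabp1 and Nab1 at day 115, which became 0.0095 and 0.38 with the replicate block and array cluster together. The 162408_f_at probe set of Il12rb1 turned to -0.00049 at day 5 with the replicate block, to 0.0101 at day 40 within cluster 2 (either spread), and ran with single arrays left out from -0.0082 to 0.087 at day 5, from -0.018 to 0.28 at day 115 and from -0.065 to 0.24 for day 115 against day 5. For day 40 against day 5, 98240_at turned to 0.052 without day-5 arrays 1 and 2 and ran from -0.083 to 0.046 with single arrays left out. Il18r1 turned to 0.012 for day 115 against day 40 within cluster 1 (either spread). Groups of 3 to 8 arrays limit the precision, and probe sets near or under the filter give little more than a bound.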
